A study of Mus musculus with 18 samples.

Results

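The genes described are 9 genes of the liver X receptor (LXR) pathway and of cholesterol handling in macrophages. They are Nr1h2 and Nr1h3, which encode the receptors LXRβ and LXRα, the cholesterol exporters Abca1 and Abcg1, the ubiquitin ligase Mylip, the lipoprotein Apoe, the lipase Lpl, the oxysterol-forming enzyme Ch25h and the lysosomal cholesterol carrier Npc1. The genes were chosen by symbol for these roles, with earlier results of these data known, by a rule that used no measured value. All 9 were found among the 24485 genes listed in each library. RNA-seq was performed on bone marrow-derived macrophages (BMDMs) from 3 male Il10-/- mice, 12 weeks of age and on the C57BL/6J background, and gave 18 libraries in 6 groups of 3. Unstimulated cells received no pretreatment and then PBS, while the JQ1 group received 500 nM (+)-JQ1 and the IL-10 group 10 ng/mL IL-10 for 12 hours before the PBS. The other 3 groups (LPS, LPS + JQ1 and LPS + IL-10) matched these but were given 50 ng/mL lipopolysaccharide (LPS) in place of PBS, in both cases for 4 hours. (+)-JQ1 blocks the bromodomains of the BET proteins, which read acetylated histones, and LPS, from the outer membrane of Gram-negative bacteria, activates macrophages through Toll-like receptor signalling. Every group carried the Il10 deletion, so no library came from wild-type cells, and cells without JQ1 or IL-10 are untreated by their labels, although a vehicle before LPS is given in the study's methods. The comparisons address how BET inhibition and exogenous IL-10 change the resting macrophage and its response to LPS.

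LXRα and LXRβ are nuclear receptors that bind DNA together with a retinoid X receptor and are switched on by oxysterols, oxidised forms of cholesterol. In macrophages loaded with cholesterol they raise genes that move cholesterol out of the cell (Abca1 and Abcg1), carry it away (Apoe) or limit its uptake (Mylip, whose product marks lipoprotein receptors for degradation). Genes of this kind respond to signals from Toll-like receptors as well as to sterols, and Ch25h, which makes 25-hydroxycholesterol, is known as an interferon-responsive gene.

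The totals of expected counts ran from 6781952 to 28289498 per library, so 3 counts, taken as the floor, stood for 0.106 to 0.442 CPM (counts scaled to a common library total), which covers counting error only. Of 9 macrophage marker symbols 8 were found, and all 8 reached 1 TPM in every library. Lyz2 made up most of their summed level, at 9722 to 24853 TPM over all libraries. The sum was 22971 to 24769 TPM in unstimulated cells and 28936 to 29066 TPM with JQ1. With LPS it was 14317 to 15764 TPM, and with LPS + JQ1 19578 to 22564 TPM. Markers of adipocytes summed to at most 0.06 TPM in any library, and the neutrophil marker Ly6g was at 0 in all. The 6 neutrophil and precursor markers summed to 23.2 to 82.2 TPM in unstimulated cells, 7.46 to 16.4 TPM with JQ1, 34.8 to 49.2 TPM with LPS and 13.0 to 29.6 TPM with LPS + JQ1. The 3 endothelial markers, of which Kdr made up most with LPS, summed to 0.56 to 0.77 TPM in unstimulated cells, 0.18 to 0.32 TPM with JQ1, 7.48 to 9.53 TPM with LPS and 0.04 to 0.11 TPM with LPS + JQ1. The part of these shifts in the results was not tested. The deleted gene Il10 still had 27.1 to 176.7 normalised counts, the lowest in an unstimulated and the highest in an LPS + IL-10 library. In RNA from bulk cultures, fewer cells of a type and less RNA per cell cannot be told apart.

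On the TPM scale, which allows for gene length, the genes spanned a wide range in resting cells. Apoe was the highest of the 9 at 25991 ± 1141 TPM (SD, n = 3) in unstimulated cells, followed by Lpl at 1317 ± 129.5 TPM. Next came Abca1 at 154 ± 0.73 TPM and Npc1 at 133 ± 5.76 TPM. Nr1h2 (87.4 ± 4.37 TPM) and Abcg1 (83.5 ± 8.93 TPM) were neighbours whose levels did not differ beyond their spread. Mylip (60.4 ± 3.39 TPM), Nr1h3 (27.7 ± 3.25 TPM) and Ch25h (1.30 ± 0.499 TPM) were the lowest. The order changed with LPS, where Ch25h ranked directly below Apoe and Lpl at 89.2 ± 9.71 TPM, next to Nr1h2 at 78.7 ± 5.77 TPM. Mylip was then the lowest at 15.7 ± 1.10 TPM, next to Abcg1 at 18.9 ± 2.30 TPM. Of the receptors Nr1h2 stood above Nr1h3 in every group, and with LPS + JQ1 their levels were 128 ± 1.25 and 2.93 ± 1.12 TPM.

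**Figure D1:**
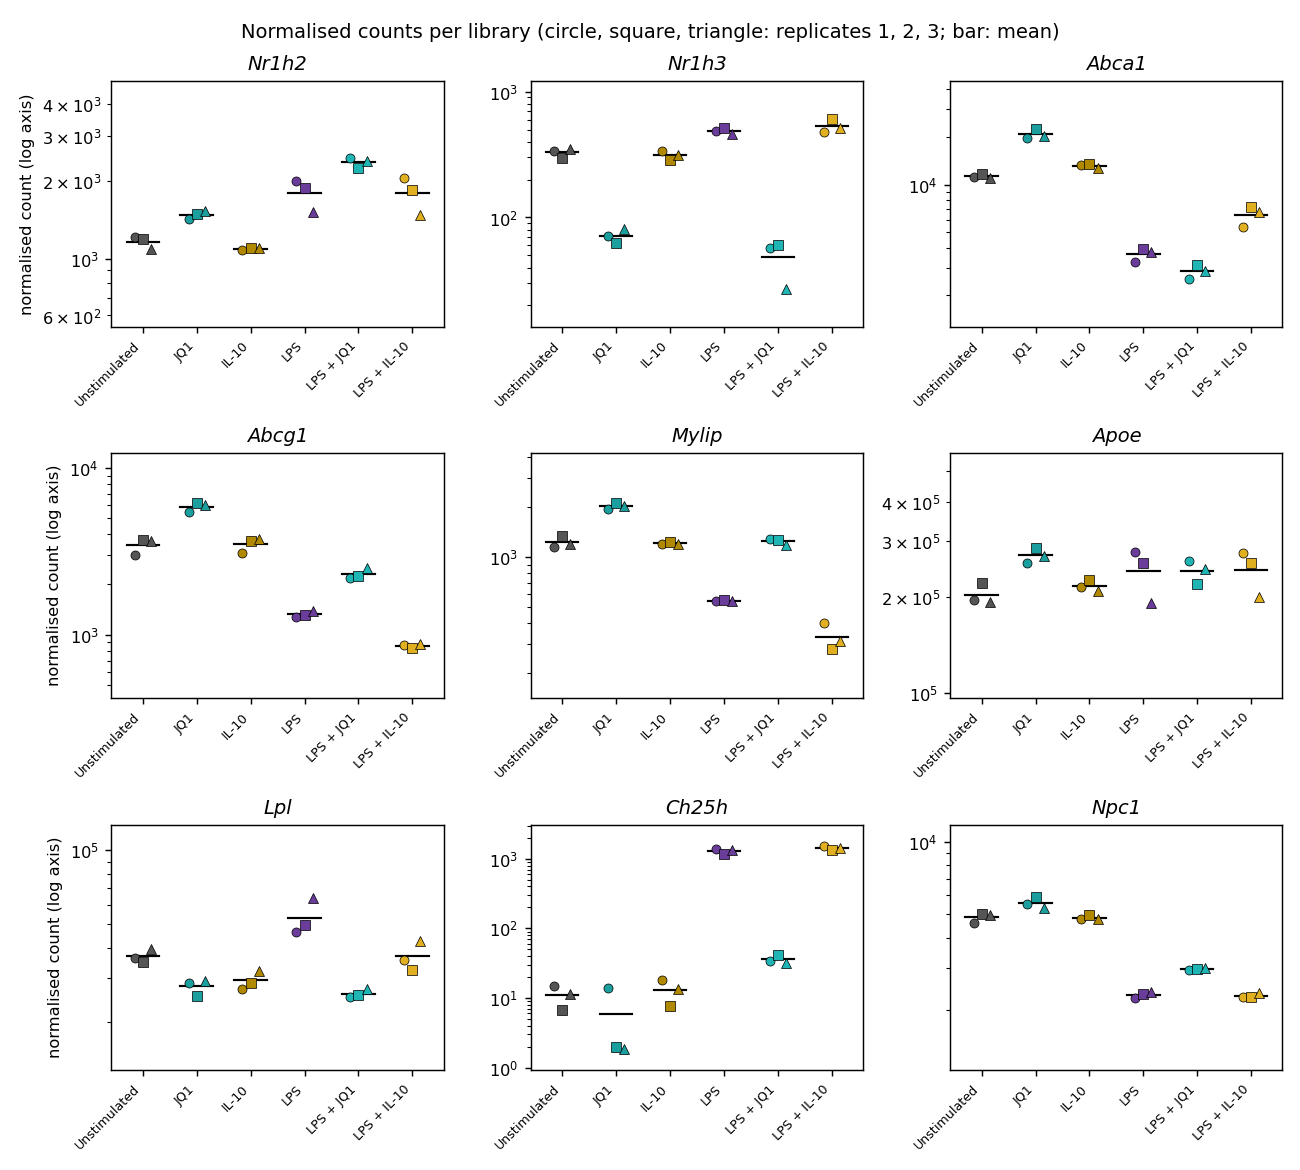
Normalised counts (median-of-ratios scaling, log axis) of the 9 genes in the 6 groups, with circles, squares and triangles for replicates 1, 2 and 3 and a bar for the mean. Ch25h lay between 1183 and 1364 in the LPS libraries and between 32.0 and 42.1 with LPS + JQ1, whereas Abca1 was highest with JQ1 alone.

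The start regions of 4 of the genes are shown because their transcripts moved in different ways below: Nr1h3 fell with JQ1, Abca1 and Mylip rose with JQ1 in resting cells, and Ch25h rose with LPS. Each line holds the 250 bases before an annotated RefSeq start site (build GRCm38.p6, which is not the mm9 build of the counts), and capitals mark the letters TATAAA, the core of a TATA box. RefSeq promoter windows were matched for 6 of the 9 genes and not for Abcg1, Lpl and Npc1.
Nr1h3 (chr2:91195036-91195285, minus strand): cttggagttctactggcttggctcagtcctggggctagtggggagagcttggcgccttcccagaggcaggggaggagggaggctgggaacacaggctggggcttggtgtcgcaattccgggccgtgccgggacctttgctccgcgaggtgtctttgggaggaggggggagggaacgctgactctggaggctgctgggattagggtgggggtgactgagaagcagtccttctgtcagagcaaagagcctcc
Abca1 (chr4:53159896-53160145, minus strand): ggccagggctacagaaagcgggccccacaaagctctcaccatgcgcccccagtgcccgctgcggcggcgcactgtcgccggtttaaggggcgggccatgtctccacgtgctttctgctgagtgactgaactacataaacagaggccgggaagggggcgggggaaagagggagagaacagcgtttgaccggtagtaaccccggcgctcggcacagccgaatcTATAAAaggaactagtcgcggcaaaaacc
Mylip (chr13:45389492-45389741, plus strand): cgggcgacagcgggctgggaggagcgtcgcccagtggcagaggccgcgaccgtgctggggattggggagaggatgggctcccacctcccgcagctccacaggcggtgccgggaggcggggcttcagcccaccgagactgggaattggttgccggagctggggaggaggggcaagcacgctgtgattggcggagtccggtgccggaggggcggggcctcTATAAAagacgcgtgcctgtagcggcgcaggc
Ch25h (chr19:34475149-34475398, minus strand): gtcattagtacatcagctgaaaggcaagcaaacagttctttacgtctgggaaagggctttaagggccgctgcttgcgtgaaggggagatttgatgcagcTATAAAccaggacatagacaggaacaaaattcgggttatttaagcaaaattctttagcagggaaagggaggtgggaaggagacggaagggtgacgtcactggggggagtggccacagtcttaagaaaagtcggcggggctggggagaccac

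In Abca1 and Mylip the TATAAA letters began at -29 and -32 from the start site, and in Ch25h at -151. TATAAA occurred on either strand in 13.6% of the 32851 promoter windows of all genes, each of 300 bases (250 before and 50 after the start). Abca1 also held the E-box letters CACGTG at -147, found in 7.15% of windows, and the GC box GGGCGG, found in 35.7%, at -163 and -97. Mylip held GGGCGG at -44 and the CCAAT box letters CCAAT, found in 37.4% of windows, on the opposite strand at -190, -108 and -67. No window of the 4 genes exactly matched the letters searched for the LXR element, direct repeats spaced by 4 bases (0.0822% of windows). Elements that depart from these letters were not searched for, so the absence of an LXR element was not tested. The windows of the 4 genes also lacked the half-site letters AGGTCA of nuclear receptors (16.3%). They lacked the AP-1 letters TGANTCA (7.81%) and the sterol element letters TCACNCCAC (1.24%) as well. Both strands were searched, and the motifs do not overlap in these windows. The windows differed in composition, with 26 CG dinucleotides in that of Abca1, 29 in that of Mylip and 10 each in that of Ch25h and in the one shown of Nr1h3, which had another window with 8.

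LPS moved the 9 genes in opposite directions. Both exporters, Mylip and Npc1 fell, whereas Ch25h rose 109.8-fold. In the DESeq2 Wald test (adjusted p over all genes under 0.05), 4 of the 9 genes were called higher and 4 lower, against 31.6% of the 14965 genes tested called higher and 32.9% lower. The calls for higher Nr1h2, Nr1h3 and Lpl depended on the scaling. The median of 11390 expressed genes moved by -0.96 on the log2 scale under total-count scaling and by -0.70 in limma on TPM (10587 genes, as log2 of the value plus a pseudocount of 1), against -0.03 under median-of-ratios scaling, and these 3 genes then turned to lower values. Relative to that median, Nr1h2 was at 0.67 under both median-of-ratios and total-count scaling and at 0.55 on TPM, Nr1h3 at 0.59, 0.59 and 0.49, and Lpl at 0.55, 0.56 and 0.43. Among the calls in these expressed genes (mean normalised count of at least 10), 49.5% were higher with LPS, and 20.6% under total-count scaling. The shares of all calls and the median gene given below refer to the same expressed genes.

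JQ1 alone, in resting cells, raised both exporters, Mylip, Nr1h2, Apoe and Npc1 and lowered Nr1h3, Lpl and Ch25h, so 6 genes were called higher and 3 lower (21.9% and 23.7% of the 13686 genes tested were called higher and lower). The call of Ch25h, whose groups overlapped, was lost with the replicate block and without any of 4 libraries, as detailed for that gene. Those of Nr1h2, Apoe and Npc1 were lost under total-count scaling and in limma on TPM, where the value of Npc1 was -0.0073. The median of the expressed genes was 0.01 under median-of-ratios and -0.16 under total-count scaling, and 49.5% and 27.6% of their calls were higher. IL-10 alone gave 0 calls among the 9 in DESeq2, in edgeR and in limma (DESeq2 called 1.80% of the 12727 genes tested higher and 1.01% lower). The 2 genes with an unadjusted p under 0.05 were Abca1 and Lpl, and with the replicate number as a block Lpl was called lower at -0.33 (adjusted p 0.0014).

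During LPS stimulation JQ1 lowered Ch25h 35.6-fold and Nr1h3 9.99-fold and raised Mylip 2.28-fold. Against LPS alone, 4 genes were called higher with LPS + JQ1 and 4 lower (24.4% and 32.9% of 14326 genes). With LPS + IL-10 only Abca1 was called higher, and Abcg1, Mylip and Lpl were called lower (8.38% and 8.81% of 11448 genes). The 2 comparisons share the LPS libraries. Of all calls 43.6% were higher with LPS + JQ1 (65.9% under total-count scaling, where the median gene moved from -0.09 to 0.29) and 48.8% with LPS + IL-10 (71.0%). LPS + JQ1 was also set against LPS + IL-10, and 4 genes were called higher and 4 lower (23.8% and 31.6% of 14326 genes; 44.0% of all calls were higher, and 62.2% under total-count scaling).

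An interaction term tested whether the LPS effect differed with pretreatment. With JQ1 it was called for 5 of the 9 genes, of which Mylip was higher and 4 lower (17.7% and 23.8% of 12727 genes; 42.8% of all calls were higher, and 85.7% under total-count scaling, where the median gene moved from -0.05 to 0.50). With IL-10 it was called for 3, with Abca1 higher and Abcg1 and Mylip lower (4.00% and 3.44% of 10808 genes; 53.7% of all calls were higher, and 73.6% under total-count scaling). In JQ1-pretreated cells LPS changed 2 genes upward and 5 downward (27.6% and 31.0% of 13686 genes; 47.9% of all calls were higher, and 26.2% under total-count scaling), and in IL-10-pretreated cells it changed 4 upward and 4 downward (33.2% and 33.8% of 14326 genes; 50.1% and 21.4%). Of the latter, the call of Lpl was lost without replicate 1 of IL-10 (adjusted p 0.0611) or replicate 3 of LPS + IL-10 (adjusted p 0.108), while DESeq2 gave 0.0094 with every library.

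**Figure D2:**
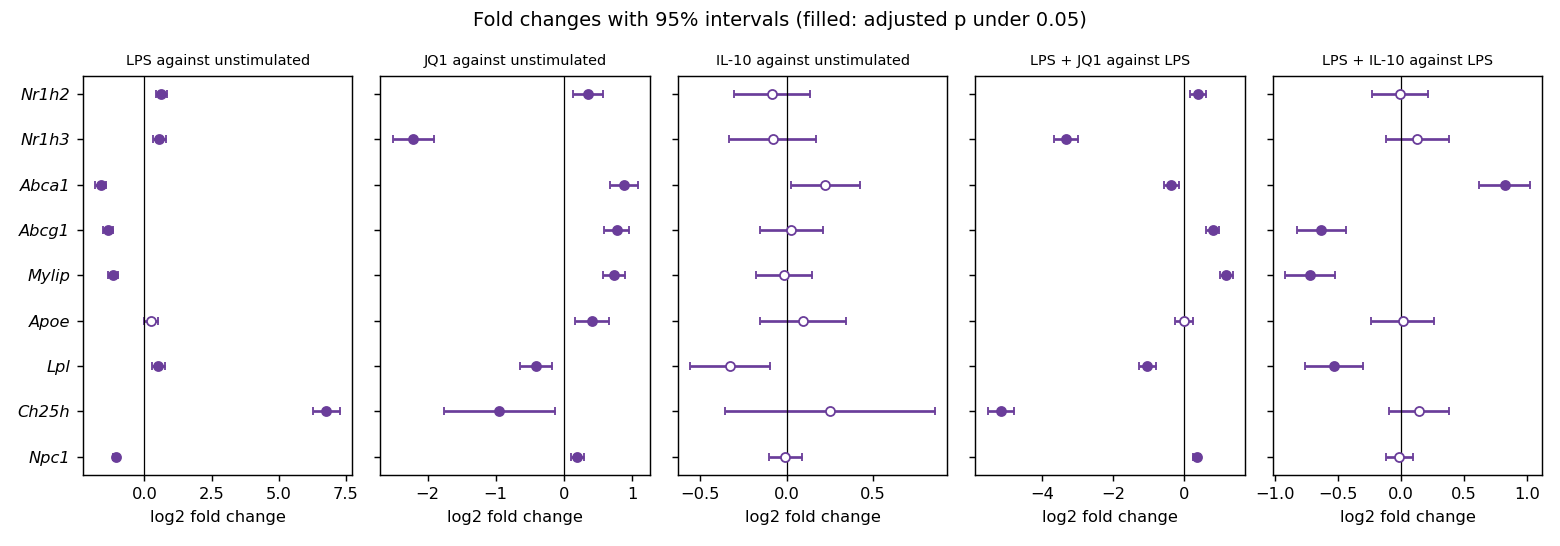
Log2 fold changes of the 9 genes in 5 comparisons, with 95% intervals from the DESeq2 standard errors, each panel on its own horizontal scale (filled points were called, open points were not). With LPS the Ch25h point sits at 6.78, and with LPS + JQ1 against LPS the Nr1h3 point sits at -3.32 and the Ch25h point at -5.15.

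The receptor genes parted under JQ1. Nr1h3 (mm9 chr2:91024218-91042991, minus strand) had 340.2, 298 and 349 normalised counts in replicates 1, 2 and 3 of unstimulated cells and 70.9, 63.1 and 80.6 with JQ1. All JQ1 libraries lay far below all unstimulated ones (log2 fold change -2.21, SE 0.15, adjusted p 3.52e-44). With LPS it had 484, 518 and 462 counts, and with LPS + JQ1 57.4, 60.0 and 27.1. The groups did not overlap, and replicate 3 of LPS + JQ1 was the lowest library of all (log2 fold change -3.32, SE 0.18, adjusted p 2.7e-78). With IL-10 the counts were 335, 287 and 314 at rest and 480.4, 608 and 517 after LPS, both overlapping the cells without IL-10. LPS changed Nr1h3 by 0.56 without pretreatment (adjusted p 3.59e-05; -0.37 under total-count scaling and -0.21 in limma on TPM) and by -0.55 after JQ1 (adjusted p 0.00904). The latter call was lost without replicate 3 of JQ1 (-0.46) or of LPS + JQ1 (-0.29). The difference between these effects, an interaction term of -1.11, passed (adjusted p 1.21e-05) but did not under total-count scaling (-0.56, adjusted p 0.0501).

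Nr1h2 (mm9 chr7:51804986-51809321, minus strand) had 1209, 1191 and 1085 normalised counts in resting cells without pretreatment, 1433, 1487 and 1528 after JQ1 and 1085, 1103 and 1096 after IL-10. Only the JQ1 libraries stood wholly above the unstimulated ones. Its counts were 2005, 1885 and 1518 after LPS alone, 2463, 2256 and 2399 when JQ1 preceded LPS and 2062, 1849.9 and 1474 when IL-10 preceded it. The LPS + JQ1 libraries were above every other library, while LPS and LPS + IL-10 overlapped and in both replicate 3 was the lowest. Nr1h2 rose with JQ1 during LPS (log2 fold change 0.40, SE 0.11, adjusted p 0.000877), the reverse of Nr1h3. Its change with LPS was 0.63 without pretreatment and 0.68 after JQ1, with an interaction of 0.044 (95% interval -0.27 to 0.35) that did not pass, though under total-count scaling the interaction was 0.60 (adjusted p 0.000144).

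Abca1 loads cholesterol onto lipid-poor apolipoprotein, and Abcg1 passes it to larger particles. Abca1 (mm9 chr4:53043659-53172767, minus strand) had 11240.4, 11748 and 10931 normalised counts in resting cells without pretreatment, 19735, 22506 and 20256 after JQ1 and 13247, 13548 and 12806 after IL-10. None of these 3 groups overlapped, and the JQ1 libraries were the highest in the series. The difference of IL-10 from unstimulated cells was not called (log2 fold change 0.22, adjusted p 0.396 in the DESeq2 Wald test). Its counts were 3246, 3915 and 3763 after LPS alone, 2541, 3120.3 and 2871 when JQ1 preceded LPS and 5399.6, 7179 and 6753 when IL-10 preceded it. Again no groups overlapped, with LPS + IL-10 highest and LPS + JQ1 lowest. LPS lowered Abca1 3.10-fold (log2 fold change -1.63, SE 0.10, adjusted p 3.65e-55) and JQ1 alone raised it 1.84-fold (log2 fold change 0.88, SE 0.10, adjusted p 1.44e-16).

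With both, Abca1 was 7.32-fold lower than with JQ1 alone. The interaction of LPS with JQ1 was -1.24 (SE 0.15, adjusted p 6.05e-16). The small further fall with LPS + JQ1 against LPS (log2 fold change -0.36, SE 0.10, adjusted p 0.00147) was not called under total-count scaling (0.018) or in limma on TPM (-0.049), while relative to the median gene it was -0.27, -0.27 and -0.24 under the 3 scalings. IL-10 pretreatment raised Abca1 during LPS 1.77-fold (log2 fold change 0.82, SE 0.10, adjusted p 1.68e-13), and the interaction of LPS with IL-10 was 0.60 (adjusted p 0.00121; 0.63, adjusted p 0.0607, in limma on TPM).

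Abcg1 (mm9 chr17:31194643-31252722, plus strand) had 2989, 3675 and 3629 normalised counts in resting cells without pretreatment, 5426, 6161 and 5990.4 after JQ1 and 3089, 3634 and 3750.1 after IL-10. The JQ1 libraries stood above the others, which overlapped. Its counts were 1277, 1308 and 1395 after LPS alone, 2181, 2261 and 2496 when JQ1 preceded LPS and 865, 828 and 875 when IL-10 preceded it, and no groups overlapped. Unlike Abca1, Abcg1 was higher with LPS + JQ1 than with LPS (log2 fold change 0.80, SE 0.10, adjusted p 8.21e-16) and lower with LPS + IL-10 (log2 fold change -0.63, SE 0.10, adjusted p 1.16e-08). LPS + JQ1 exceeded LPS + IL-10 by 1.43 for Abcg1 and stood at -1.18 for Abca1. The fall of Abcg1 with LPS was -1.37 without pretreatment and -1.34 after JQ1, with an interaction of 0.028 (95% interval -0.24 to 0.29), which was 0.58 under total-count scaling. After IL-10 the fall was -2.03, and this interaction passed (-0.66, adjusted p 8.11e-05).

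Mylip (mm9 chr13:45485111-45507388, plus strand) had 1142, 1346 and 1207 normalised counts in resting cells without pretreatment, 1953, 2130.2 and 2035 after JQ1 and 1205, 1230.2 and 1197 after IL-10. JQ1 libraries were the highest, and IL-10 libraries lay within the unstimulated range. It had 546, 549 and 543 counts after LPS alone, 1282, 1266 and 1183 when JQ1 preceded LPS and 401, 279.7 and 313 when IL-10 preceded it. The LPS libraries were nearly equal, those with LPS + JQ1 lay within the unstimulated range (on the TPM scale below it, at 41.9 to 46.7 against 56.8 to 63.5 TPM), and those with LPS + IL-10 were the lowest. LPS lowered Mylip 2.25-fold (log2 fold change -1.17, SE 0.09, adjusted p 5.09e-38), and JQ1 raised it in LPS-stimulated cells (log2 fold change 1.19, SE 0.09, adjusted p 1.2e-38) more than at rest (0.73), with an interaction of 0.46 (adjusted p 0.000782). IL-10 lowered it only during LPS (-0.72 against -0.019 at rest, interaction -0.70, adjusted p 4.17e-06).

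The lipoprotein gene Apoe (mm9 chr7:20281458-20284515, minus strand) was called in 1 of the 8 comparisons between groups. It had 196521, 222248 and 192746 normalised counts in resting cells without pretreatment, 257063, 284745 and 270172 after JQ1 and 215803, 226913 and 209347 after IL-10. JQ1 libraries were above unstimulated ones without overlap (log2 fold change 0.41, SE 0.13, adjusted p 0.00414), a call lost under total-count scaling (0.23, adjusted p 0.0913). It had 277812, 256207 and 192044 counts after LPS alone, 260531, 219642 and 244895 when JQ1 preceded LPS and 275604, 256683 and 200313 when IL-10 preceded it. These groups overlapped throughout, and replicate 3 was the lowest in LPS and in LPS + IL-10. The LPS effect was 0.25 (adjusted p 0.0791), and it was called without replicate 3 of LPS (0.39) or replicate 2 of unstimulated cells (0.31), with lane as a covariate (0.30), and in the opposite direction under total-count scaling (-0.68). Its interaction of LPS with JQ1 was -0.41 (adjusted p 0.0548; with the replicate block 0.0325), and it was also called without replicate 2 of unstimulated cells, 3 of LPS or 1 of LPS + JQ1, but it turned to 0.14 under total-count scaling, where it did not pass.

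Lpl (mm9 chr8:71404390-71431347, plus strand) encodes lipoprotein lipase, which splits triglycerides in lipoproteins and which macrophages secrete. It had 36336, 34950.3 and 39742 normalised counts in resting cells without pretreatment, 28811, 25392 and 29338 after JQ1 and 27281, 28884 and 32199 after IL-10. Both pretreated groups lay wholly below the unstimulated libraries and overlapped each other. It had 46509, 49416 and 63732 counts after LPS alone, 25306, 25721 and 27068 when JQ1 preceded LPS and 35645, 32524 and 42536 when IL-10 preceded it. LPS libraries were the highest, LPS + JQ1 ones the lowest and LPS + IL-10 ones between, with no overlap. The fall with JQ1 was larger during LPS (log2 fold change -1.03, SE 0.12, adjusted p 1.19e-17) than at rest (log2 fold change -0.41, SE 0.12, adjusted p 0.00159). The interaction of -0.62 (adjusted p 0.000771) did not pass under total-count scaling (-0.071) or in limma on TPM (-0.10). The difference of LPS + JQ1 from LPS + IL-10 (-0.50, adjusted p 5.39e-05) was not called under total-count scaling (-0.22), and LPS after JQ1 (-0.10) was called lower there (-0.47). The rise with LPS (0.52) turned to -0.40 under total-count scaling. IL-10 lowered Lpl during LPS (-0.53, adjusted p 0.000111; 0.0813 in limma on TPM), while the fall at rest (-0.33) passed only with the replicate block, with lane as a covariate, with both or in fits to the 2 groups alone.

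Ch25h (mm9 chr19:34548276-34549625, minus strand) had the lowest counts of the 9 genes at rest and was far higher with LPS. It had 14.7, 6.77 and 11.4 normalised counts in resting cells without pretreatment, 13.8, 1.97 and 1.83 after JQ1 and 18.1, 7.68 and 13.3 after IL-10. These groups overlapped, and replicates 2 and 3 with JQ1 held 2 reads each. It had 1364, 1183 and 1333 counts after LPS alone, 34.2, 42.1 and 32.0 when JQ1 preceded LPS and 1547, 1316 and 1420.0 when IL-10 preceded it. The LPS and LPS + IL-10 libraries overlapped and stood more than an order of magnitude above the LPS + JQ1 libraries. LPS raised Ch25h 109.8-fold without pretreatment (log2 fold change 6.78, SE 0.26, adjusted p 3.37e-149) and 5.94-fold after JQ1 (log2 fold change 2.57, SE 0.37, adjusted p 2.62e-11). The interaction was -4.21 (SE 0.45, adjusted p 6.63e-19). The sizes of both depended on replicate 1 of JQ1, the only JQ1 library above the floor of 3 counts: without it the log2 effect of LPS after JQ1 was 4.26 and the interaction -2.52 (adjusted p 0.00506). The difference between LPS + IL-10 and LPS did not pass (0.14, 95% interval -0.095 to 0.38). The lower count with JQ1 at rest (-0.95, adjusted p 0.0489) was not called with the replicate block (adjusted p 0.148) or in edgeR or limma on TPM, nor without replicate 2 or 3 of JQ1 (-0.55 and -0.51) or replicate 1 or 3 of unstimulated cells (-0.71 and -0.98), and it was -2.63 (adjusted p 0.00221) without replicate 1 of JQ1 and -1.08 (adjusted p 0.0263) without replicate 2 of unstimulated cells.

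**Figure D3:**
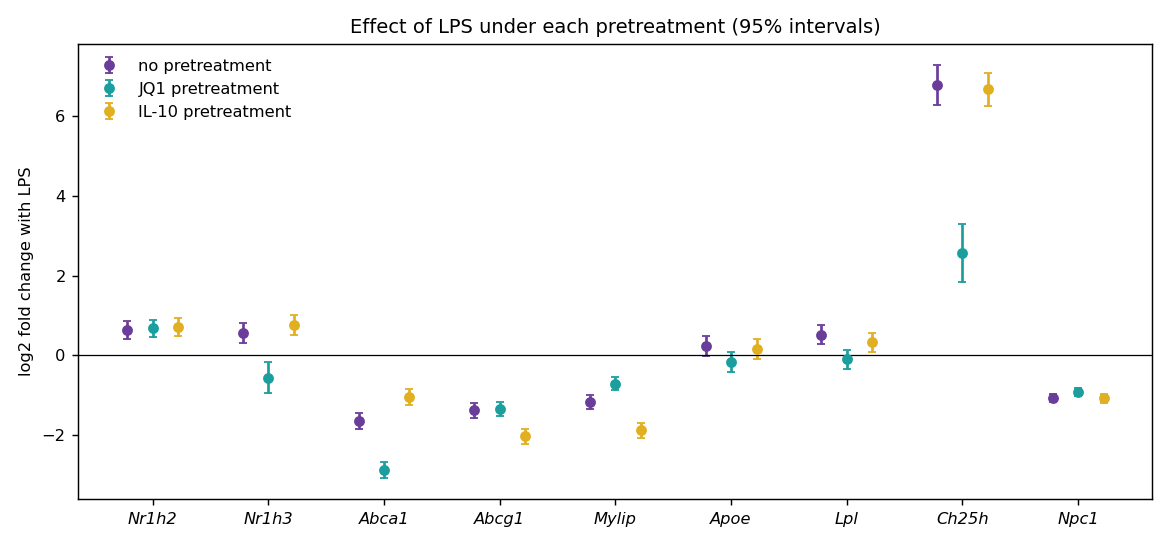
Log2 fold change of each gene with LPS in cells without pretreatment and after JQ1 or IL-10, with 95% intervals. The Ch25h point lies at 6.78 without pretreatment and at 2.57 after JQ1 (4.26 without replicate 1 of JQ1), and the Abca1 point falls from -1.63 to -2.87 after JQ1 and rises to -1.03 after IL-10.

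Npc1 (mm9 chr18:12348202-12394909, minus strand) passes cholesterol out of the lysosome. It had 4629, 5045 and 4958 normalised counts in resting cells without pretreatment, 5548, 5916 and 5334 after JQ1 and 4783, 4965 and 4790.2 after IL-10. JQ1 libraries lay a little above the unstimulated ones and IL-10 libraries within them. It had 2245, 2334 and 2375 counts after LPS alone, 2925, 2951 and 2992 when JQ1 preceded LPS and 2260.0, 2260.4 and 2363 when IL-10 preceded it. LPS and LPS + IL-10 overlapped, and LPS + JQ1 stood above both. LPS lowered Npc1 2.10-fold (log2 fold change -1.07, SE 0.053, adjusted p 7.21e-91), and JQ1 raised it by 0.35 during LPS (adjusted p 3.23e-10). The interaction of LPS with JQ1 was 0.15 (adjusted p 0.0897; 0.28, adjusted p 0.000496, under TMM scaling), and it was also called in edgeR, under total-count scaling and without replicate 1 of unstimulated cells or 2 of JQ1. The gene overlaps 3110002H16Rik on the other strand, which was listed at 9.34 to 40.0 TPM. The default settings of RSEM ignore strand, so reads of both genes could be confused. Expected counts of Npc1 were whole numbers in most libraries and held fractions in others, such as 7396.84 in replicate 3 of unstimulated cells. The effect of the overlap on the counts was not tested.

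Related genes were counted in 6 lists, some of which share members such as Insig1. Their counts are to be read against the shares of all genes tested that were called higher and lower, which were 31.6% and 32.9% with LPS, 21.9% and 23.7% with JQ1, 24.4% and 32.9% with LPS + JQ1 against LPS, and 8.38% and 8.81% with LPS + IL-10 against LPS. Of 13 tested partners and coregulators of the receptors, 1 rose and 8 fell with LPS (median log2 fold change -1.05, against -0.07 over all genes tested; 1 and 12 under total-count scaling). Rxra, the retinoid X receptor that pairs with LXR, went from 2017 ± 187 (SD, n = 3) to 119 ± 16.7 normalised counts (log2 fold change -4.08, SE 0.12, adjusted p 1.25e-261) and was at 124 with LPS + JQ1. Pparg, a lipid-sensing nuclear receptor, went from 625 to 37.6 (log2 fold change -4.05, SE 0.18, adjusted p 2.81e-111) and to 241 with JQ1 alone (log2 fold change -1.37, SE 0.11, adjusted p 1.77e-32). With LPS + JQ1 against LPS 5 of the 13 rose and 5 fell, against 24.4% and 32.9% of all genes (6 and 4 under TMM scaling, 9 and 3 under total-count scaling). With JQ1 at rest 3 rose and 4 fell.

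The other LXR target genes were mostly not called with LPS. Of 15 tested with LPS, 1 rose and 3 fell (1 and 11 under total-count scaling). The gene that rose was Tnfaip2, a TNF-induced gene, at 5.02, and those that fell included Arl4c (-4.23), whose product takes part in cholesterol movement to ABCA1, and the desaturase gene Scd2 (-3.52). Arl4c followed the direction of Abcg1 and Mylip under JQ1, with 4042 normalised counts in unstimulated cells, 7543 with JQ1, 215 with LPS and 639 with LPS + JQ1. With JQ1 at rest 4 of 13 rose and 7 fell, and with LPS + JQ1 against LPS 2 of 15 rose and 5 fell, Apoc2 (-1.81) and the phosphodiesterase gene Smpdl3a (-1.74) among the latter. Srebf1, the lipogenic factor that LXR raises, did not pass in these comparisons (0.14 with LPS, -0.13 with JQ1 and -0.0099 with LPS + JQ1 against LPS), and its LPS value turned to -0.79 under total-count scaling.

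Genes of sterol synthesis, most of them targets of the factor SREBP2, were mostly higher with LPS under median-of-ratios scaling and mostly lower with JQ1. Of 19 tested, 12 rose and 5 fell with LPS (8 and 8 under total-count scaling, with a median of -0.11 instead of 0.82). With JQ1 at rest none rose and 15 fell (16 under total-count scaling), and with LPS + JQ1 against LPS 1 rose and 14 fell (median -1.46, against -0.11 over all genes tested; 3 and 11 under total-count scaling). Idi1, an isomerase of the pathway, rose with LPS (2.23) and fell when JQ1 preceded the LPS (log2 fold change -2.58, SE 0.19, adjusted p 3.81e-39). Cyp51, a demethylase of the same pathway, had log2 fold changes of 1.45 and -2.72 in these comparisons. With LPS + IL-10 against LPS 11 of 18 rose and none fell, under total-count scaling as well, against 8.38% and 8.81% of all genes.

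The genes of cholesterol uptake, storage and export were called at shares near those of all genes with LPS (31.6% higher and 32.9% lower): 7 of 17 rose and 6 fell (6 and 10 under total-count scaling). The cholesterol-esterifying enzyme gene Soat1 (-1.40) and the ester hydrolase gene Nceh1 (-2.35) fell with LPS and rose with JQ1 (0.36 and 0.88). Against LPS, 4 of the 17 rose and 10 fell with LPS + JQ1 (6 and 5 under total-count scaling). The gene of the sterol transfer protein Gramd1b was among those that fell (-2.40).

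Of 10 genes of oxysterol synthesis and sensing 1 rose and 4 fell with LPS, against 31.6% and 32.9% of all genes (1 and 7 under total-count scaling). Gpr183, the receptor for dihydroxycholesterols made from the Ch25h product, went from 484 to 32.6 normalised counts with LPS (log2 fold change -3.90, SE 0.21, adjusted p 3.3e-78) and was at 43.8 with JQ1 (log2 fold change -3.46, SE 0.18, adjusted p 2.13e-82). Cyp27a1, which hydroxylates the side chain of cholesterol, went from 442 to 131 with LPS (log2 fold change -1.73, SE 0.12, adjusted p 2.06e-45). Of 9 genes tested with LPS + JQ1 against LPS 2 rose and 4 fell (2 and 2 under total-count scaling).

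Of 5 tested lipoprotein lipase partners 2 rose and 2 fell with LPS (1 and 3 under total-count scaling), and 3 fell with JQ1 and with LPS + JQ1. Angptl4, an inhibitor of the lipase, went from 194 to 5.03 normalised counts with LPS (log2 fold change -5.31, SE 0.48, adjusted p 1.95e-27). In IL-10-treated resting cells, 1 of 13 other LXR targets and 1 of 13 partners and coregulators of the receptors rose. Of all genes tested there, 1.80% were called higher and 1.01% lower, and no other list had a call.

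**Figure D4:**
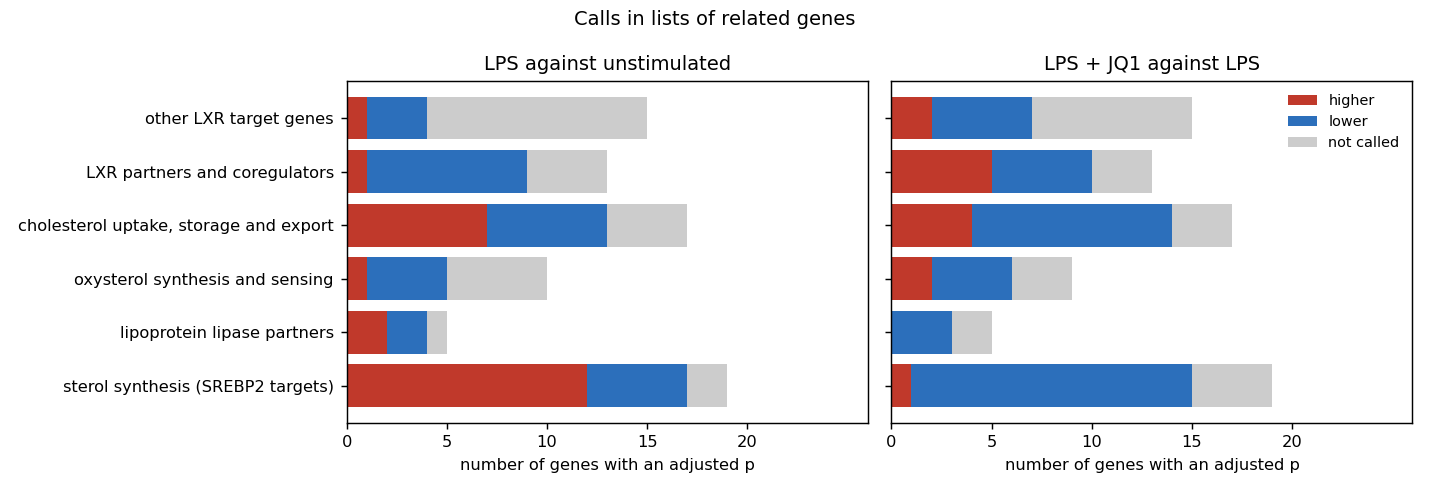
Number of genes called higher, called lower and not called in 6 lists of related genes, with LPS against unstimulated cells (left) and LPS + JQ1 against LPS (right). In the sterol synthesis list 12 of 19 are higher with LPS (8 under total-count scaling), and 14 of 19 are lower with LPS + JQ1.

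For 3 of the genes the group means were compared with those of 8377 others as centred log2 values over the 6 groups. The genes nearest to Abca1 were Idh1 (root mean square difference 0.197), Gyg (0.291) and Bend4 (0.306). Nearest to Abcg1 were Pcyox1 (0.168), Pgm2l1 (0.171) and Haghl (0.176). Nearest to Ch25h were Isg20 (0.483), Slfn4 (0.631) and Src (0.640), and Isg20 had mean normalised counts of 2400 with LPS and 113.6 with LPS + JQ1. The differences were not scaled to the size of the changes, which were larger for Ch25h. Closeness can therefore not be compared between the 3 genes.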

How the data were processed

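RNA-seq was performed by the authors on BMDMs in 18 libraries, with stranded ribosomal RNA-depleted preparation and paired-end sequencing. The authors used TagDust for read extraction, STAR for alignment (mouse build mm9) and RSEM 1.2.31 for gene quantification, leaving the last 2 at their defaults. From this the authors deposited expected counts, which share a read among all genes it matches. TPM, abundance per length, was computed by the authors too, the deposited effective lengths served as an offset, and the authors' FPKM values were not used.

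Expected counts were rounded and tested with the DESeq2 1.42.0 Wald test in R 4.3.3 on the 6 groups together, scaled by median-of-ratios size factors, with Benjamini-Hochberg adjustment over all genes. Adjusted p-values under 0.05 were called. Alternatives used TMM and total-count scaling, an effective-length offset, count filters, the replicate block, lane as a covariate, fits to only the groups compared, edgeR 4.0.16, limma 3.58.1 on log2(TPM + 1) with other pseudocounts, and fits without each library. The test was tried on simulated data. Group and replicate came from the titles; the series describes its samples as matched biological replicates from 3 mice but names no mouse for a number, so that a number stands for a mouse was taken from this wording. Correlations of same-numbered deviations were 0.121 to 0.182 for LPS and 0.250 to 0.581 for LPS + IL-10 against LPS, but reached -0.171 for LPS + JQ1 against LPS. Lane was 7 for replicate 1, 8 for replicate 3, and for replicate 2 it was 7 without LPS and 8 with it. 

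The 9 genes, the gene lists and the motifs were chosen with earlier results of these data known. List genes were named if among the 3 largest called changes per list (mean normalised count of at least 50) with LPS or LPS + JQ1 against LPS, with Srebf1, Cyp27a1, Gpr183, Rxra, Pparg and Soat1 besides, and some genes that the rule names are not reported here. Genes like Abca1, Abcg1 and Ch25h were the 3 nearest by group means, with a mean count of at least 100. Positions are from the mm9 annotation.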

Additional observations from a re-analysis of the deposited data

Results flagged for a closer look

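The effect of LPS differed with JQ1 pretreatment for 5 genes by an interaction test (DESeq2 Wald test over all genes). The interaction was -4.21 for Ch25h, -1.24 for Abca1, -1.11 for Nr1h3, -0.62 for Lpl and 0.46 for Mylip on the log2 scale. The value of Ch25h rested on replicate 1 of JQ1, without which it was -2.52. Those of Nr1h3 and Lpl did not pass under total-count scaling. With IL-10 pretreatment the same test found a difference for 3 genes, at 0.60 for Abca1, -0.66 for Abcg1 and -0.70 for Mylip. That of Abca1 did not pass in limma on log2(TPM + 1), and fewer of the 3 were called with a pseudocount of 5. No group had more than 3 libraries, so no library was tested as standing apart from its group.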

How the results depend on the processing

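Of the 1818 values of single genes under an alternative, 1689 kept their side of the threshold and, where called, their direction, 41 passed it newly, 50 no longer passed and 38, called in at least 1 of the 2 fits, turned, and of the 202 counts of called genes 196 stayed within 1.5 times. Of the 1689, 80 that were called in neither fit changed sign, such as Apoe in LPS + JQ1 against LPS under TMM scaling (0.11) and with the replicate block (0.011) and Apoe in the interaction with JQ1 under total-count scaling (0.14). The cause of the turns was not tested. The 38 came from total-count scaling or TPM. Under total-count scaling the LPS effect was -0.29 for Nr1h2, -0.37 for Nr1h3, -0.68 for Apoe and -0.40 for Lpl, and after IL-10 it was -0.12 for Nr1h2, -0.056 for Nr1h3, -0.66 for Apoe and -0.50 for Lpl. LPS + JQ1 against LPS then gave 0.018 for Abca1 and 0.38 for Apoe, and against LPS + IL-10 0.27 for Apoe. With limma on log2(TPM + 1), and with pseudocounts of 0.1 and 5, the LPS effect was -0.15, -0.15 and -0.14 for Nr1h2, -0.21, -0.21 and -0.18 for Nr1h3, -0.55 each for Apoe and -0.27, -0.27 and -0.26 for Lpl. With these pseudocounts it was -0.024, -0.024 and -0.023 for Nr1h2, -0.58 for Apoe and -0.40 for Lpl after IL-10, -0.0073, -0.0073 and -0.0071 for Npc1 with JQ1, and 0.31 for Apoe in LPS + JQ1 against LPS.

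The numbers called moved by over 1.5 times in 3 comparisons. With JQ1 at rest it was 5 in limma on log2(TPM + 1) instead of 9. With IL-10 at rest it was 1 with the replicate block, with lane as a covariate and with both, and 2 with only the groups compared, instead of 0. For the interaction of LPS with IL-10 it was 1 with a pseudocount of 5 instead of 3. Without each library in turn, the numbers called were 8 to 9 for LPS, 8 to 9 for JQ1, 0 to 0 for IL-10, 8 to 8 for LPS + JQ1 against LPS, 4 to 4 for LPS + IL-10 against LPS, 8 to 8 for LPS + JQ1 against LPS + IL-10, 6 to 7 for LPS after JQ1, 7 to 8 for LPS after IL-10, 5 to 6 for the interaction with JQ1 and 3 to 3 for that with IL-10. The replicate block changed the calls of Ch25h with JQ1, Lpl with IL-10 and Apoe in the interaction with JQ1, and no other. Ch25h had few reads at rest, as few as 2 in replicates 2 and 3 of JQ1, against 16 in replicate 1. Totals of these libraries were 13126919, 13784854 and 14442440, and the part of depth was not tested.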
